A study of Mus musculus with 9 samples.

Results

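The genes of transforming growth factor β (TGF-β) signaling described here are the ligands *Tgfb1*, *Tgfb2* and *Tgfb3*, the latent binding proteins *Ltbp1* and *Ltbp2*, the receptors *Tgfbr1* and *Tgfbr2*, and the signal transducers *Smad3* and *Smad7*. They were taken by symbol from the tables of the series, and all 9 were found, out of 15095 genes with values in every library. The cells were neonatal rat ventricular myocytes (NRVMs), primary cardiomyocytes of the Sprague Dawley strain taken from rats in the first 1 to 2 days of life. The record names mouse as the organism, whereas the strain, the cells and the genome build are those of rat. Cultures were kept for 48 h in DMEM/199 with 3% fetal bovine serum and were then infected at a multiplicity of infection of 50 with Adeno-LacZ, Adeno-Nrf1 or Adeno-Nrf2, in the same medium, and RNA was collected 48 h later. LacZ is bacterial β-galactosidase and served as the control. Nrf1 (encoded by *Nfe2l1*) and Nrf2 (encoded by *Nfe2l2*) are related leucine zipper transcription factors, known for control of the proteasome and of the response to oxidative stress, and the mouse coding regions were used. All 3 viruses carried a cytomegalovirus promoter and a red fluorescent protein, and this promoter is active in any infected cell type, not in cardiomyocytes alone. Each group held 3 libraries, and nothing states whether they came from separate cell isolations, so p-values measure the spread between these libraries, which may be technical.

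TGF-β ligands are secreted as inactive complexes with their own propeptide. Latent TGF-β binding proteins tether such complexes to the extracellular matrix, from which the ligand is released by integrins, proteases or thrombospondin. The released ligand binds Tgfbr2, which activates the kinase of Tgfbr1, and this kinase phosphorylates Smad2 and Smad3, which enter the nucleus with Smad4 and switch on target genes. Smad7 is itself induced by the pathway and shuts it down at the receptor. In the heart the pathway is known for turning fibroblasts into matrix-producing myofibroblasts and for its part in hypertrophy.

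The libraries held between 7894221 and 11960378 reads assigned to genes. Within each group they are called a, b and c, from the deepest to the shallowest, because they carry no replicate number. Values are given as normalized reads, that is, reads divided by a size factor that puts all 9 libraries on 1 scale. Reads also grow with transcript length, so a gene is compared between groups and not with another gene. The read counts carry counting error as well: the least covered gene, *Tgfbr1*, rested on 166 to 345 reads per library and the most covered, *Tgfb2*, on 6065 to 10003. *Nfe2l2*, which checks the Nrf2 label, had 67554 to 78772 normalized reads in the Nrf2 libraries and 3399 to 3493 in the LacZ libraries. *Nfe2l1* was not analysed here, so the Nrf1 label was not checked.

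The 3 ligands ordered the groups differently. *Tgfb1*, the isoform best known in fibrosis, had 539, 636 and 565 normalized reads in the LacZ libraries a, b and c. It had 362, 327 and 357 in the Nrf1 libraries and 408, 423 and 444 in the Nrf2 libraries. The 3 groups did not overlap, with LacZ highest, Nrf2 between and Nrf1 lowest. In Nrf1 cells *Tgfb1* fell by 0.73 on the log2 scale (SE 0.0711, limma adjusted p = 2.08e-07), to 0.601 of the LacZ level. In Nrf2 cells the log2 difference from LacZ was -0.44 (SE 0.0683, adjusted p = 7.64e-05), which passed the p cutoff but stayed within 1.5-fold. Directly compared, *Tgfb1* was higher in Nrf2 than in Nrf1 cells by 0.28 on the log2 scale (SE 0.0621, adjusted p = 0.000766).

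*Tgfb2*, the isoform that supports cushion and valve formation in the developing heart, moved the opposite way with Nrf1. It had 7030.0, 6858 and 7189 normalized reads in the LacZ libraries and 9409, 9757 and 9615 in the Nrf1 libraries. In the Nrf2 libraries it had 6729, 6824 and 6978, within or just under the LacZ range. Every Nrf1 library was thus above all others, while LacZ and Nrf2 overlapped. The log2 difference of Nrf1 from LacZ was 0.45 (SE 0.0325, adjusted p = 6.90e-09), a level 1.36 times that of LacZ, and so under the 1.5-fold cutoff. That of Nrf2 from LacZ was -0.04, with a 95% confidence interval of -0.108 to 0.0343 (adjusted p = 0.365). With libraries scaled by total reads this difference was -0.13 and passed the p cutoff (limma adjusted p = 0.00333). *Tgfb2* was lower in Nrf2 than in Nrf1 cells by a log2 difference of -0.49 (SE 0.0222, adjusted p = 2.76e-12).

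*Tgfb3*, a ligand needed for palate fusion, differed with Nrf2 and not detectably with Nrf1. Its normalized reads were 2084, 2111 and 2128 in the LacZ libraries and 2307, 2201 and 2169 in the Nrf1 libraries. They were 1562, 1475 and 1692 in the Nrf2 libraries, all below every other library. The log2 difference of Nrf1 from LacZ was 0.08, with an interval of -0.00595 to 0.157 (adjusted p = 0.0935), although the 3 Nrf1 libraries lay above the 3 LacZ libraries. Nrf2 cells were lower than LacZ cells by a log2 difference of -0.42 (SE 0.0478, adjusted p = 4.18e-06) and lower than Nrf1 cells by -0.50 (SE 0.0429, adjusted p = 1.70e-08). None of the ligand differences other than that of *Tgfb1* with Nrf1 reached 1.5-fold.

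**Figure D1:**
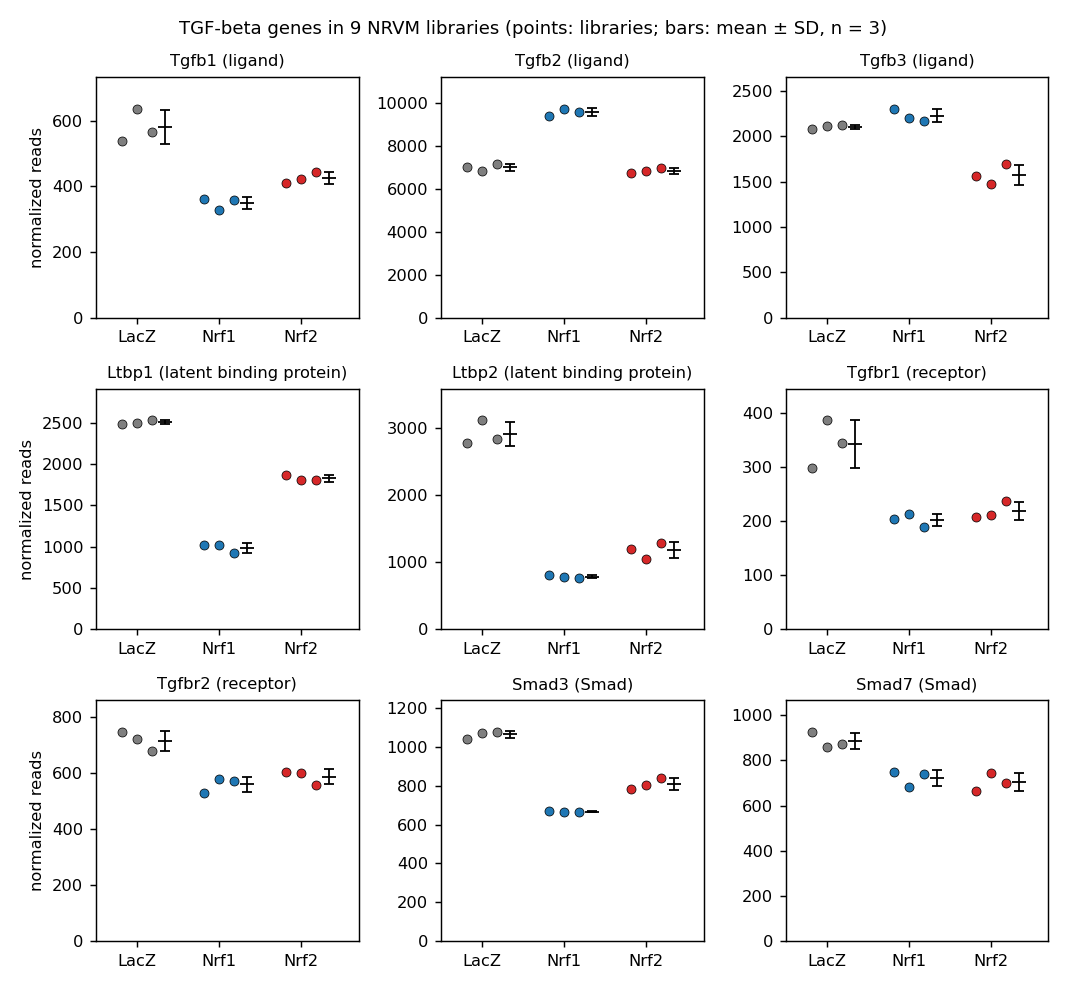
Normalized reads (y axis, linear from 0) of the 9 TGF-β genes in the LacZ, Nrf1 and Nrf2 groups. Points are the libraries a, b and c from left to right, and bars give the mean ± SD of 3 libraries. *Tgfb2* is the gene whose Nrf1 libraries (9409 to 9757) stand clearly above LacZ (6858 to 7189), and *Ltbp2* shows the widest gap in the opposite direction.

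The proportions of the ligands within a library differed between the groups. *Tgfb1* made up 5.58%, 6.63% and 5.72% of all ligand reads in the LacZ libraries, 2.99%, 2.66% and 2.94% in the Nrf1 libraries and 4.70%, 4.86% and 4.88% in the Nrf2 libraries. The share of *Tgfb2* was 71.4% to 72.8% in LacZ, 77.9% to 79.4% in Nrf1 and 76.6% to 78.2% in Nrf2. Its share was thus above LacZ in both groups, and the ranges of Nrf1 and Nrf2 overlapped. The share of *Tgfb3* was 21.5% to 22.0% in LacZ, 17.9% to 19.1% in Nrf1 and 16.9% to 18.6% in Nrf2. The shares describe the libraries and were not tested.

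With Nrf1 the latent binding proteins fell furthest of the 9 genes. *Ltbp1*, which binds latent TGF-β covalently and anchors it in the matrix, had 2481, 2494 and 2529 normalized reads in the LacZ libraries. It had 1021, 1025 and 918 in the Nrf1 libraries and 1870.0, 1803 and 1801 in the Nrf2 libraries, so that no 2 groups overlapped. With Nrf1 it fell by 1.34 on the log2 scale (SE 0.0467, adjusted p = 1.03e-12), to 0.394 of the LacZ level. With Nrf2 the log2 difference from LacZ was -0.45 (SE 0.0366, adjusted p = 1.23e-07), or 0.730 of the LacZ level, inside the fold cutoff. The direct comparison gave 1.84 times as much *Ltbp1* in Nrf2 as in Nrf1 cells (log2 difference 0.88, SE 0.0425, adjusted p = 6.75e-12).

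*Ltbp2* belongs to the same family but is not known to bind latent TGF-β, and is counted among the proteins of elastic microfibrils. Its normalized reads were 2773, 3116 and 2836 in the LacZ libraries, 803, 785 and 759 in the Nrf1 libraries and 1191, 1050 and 1286 in the Nrf2 libraries. It fell by 1.89 on the log2 scale with Nrf1 (SE 0.0480, adjusted p = 2.65e-14). With Nrf2 it fell by 1.31 (SE 0.0648, adjusted p = 6.82e-10). These are 0.269 and 0.404 of the LacZ level, and 1.85% and 1.61% of all tested genes had a lower log2 fold change in the respective comparison. *Ltbp2* was higher in Nrf2 than in Nrf1 cells by 0.58 on the log2 scale (SE 0.0572, adjusted p = 1.22e-07), which is 1.49-fold and just under the cutoff. This difference crossed the cutoff when fold changes were re-centred on the median gene (0.61), without Nrf1 library a (0.60) and without Nrf2 library b (0.66).

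Set against the ligands in the same library, *Ltbp1* and *Ltbp2* together gave 54.4, 58.4 and 54.3 reads per 100 ligand reads in LacZ cells. They gave 15.1, 14.7 and 13.8 in Nrf1 cells and 35.2, 32.7 and 33.9 in Nrf2 cells. The balance within the pair differed as well. There were 89.5, 80.0 and 89.2 *Ltbp1* reads per 100 *Ltbp2* reads in LacZ, 127, 131 and 121 in Nrf1, and 157, 172 and 140 in Nrf2. Neither ratio overlapped between any 2 groups, and neither was tested. As *Ltbp2* is not known to bind latent TGF-β, the first ratio does not measure how much ligand could be bound.

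**Figure D2:**
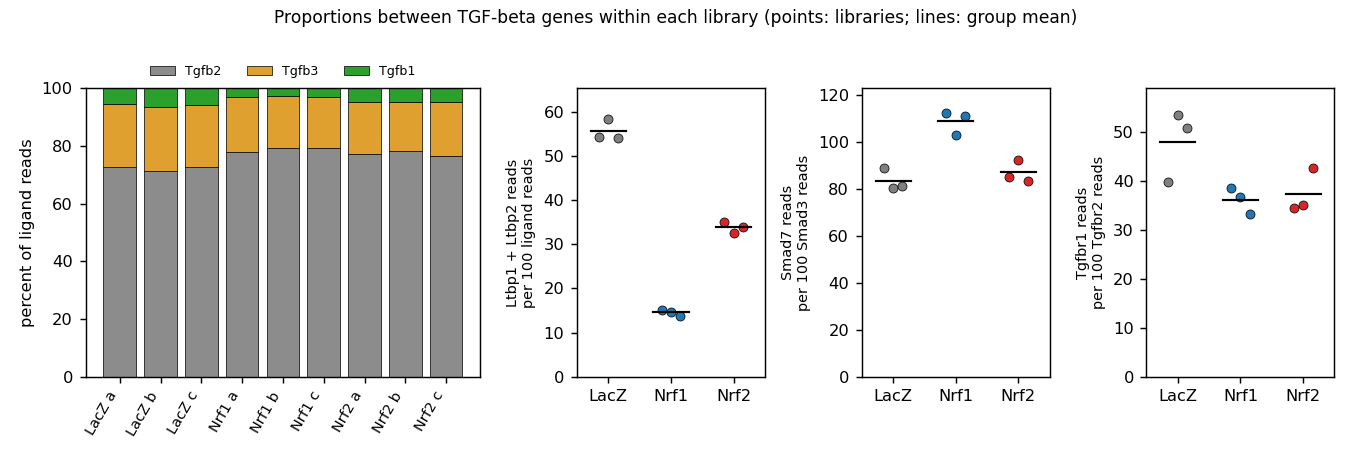
Proportions within each library. The stacked bars give each ligand's percent of ligand reads in the 9 libraries, and the other panels give *Ltbp1* plus *Ltbp2* reads per 100 ligand reads, *Smad7* reads per 100 *Smad3* reads and *Tgfbr1* reads per 100 *Tgfbr2* reads (points, libraries; lines, group means). The Nrf1 libraries hold 13.8 to 15.1 *Ltbp1* plus *Ltbp2* reads per 100 ligand reads, against 54.3 to 58.4 in LacZ.

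Both receptors were lower than LacZ with either factor, and they did not separate the factors. *Tgfbr1*, the type I receptor kinase, had 298, 387 and 345 normalized reads in the LacZ libraries. It had 204, 214 and 189.8 in the Nrf1 libraries and 208, 211 and 238 in the Nrf2 libraries. All 6 libraries of the factors lay under the lowest LacZ library, and the factors overlapped each other. *Tgfbr1* fell by 0.76 on the log2 scale with Nrf1 (SE 0.0941, adjusted p = 3.47e-06). In Nrf2 cells it fell by 0.64 (SE 0.0958, adjusted p = 5.69e-05). LacZ library b was the highest of its group, and without it the difference of Nrf2 from LacZ was -0.55 and no longer reached 1.5-fold.

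*Tgfbr2*, the type II receptor that captures the ligand, had 749, 722 and 678 normalized reads in the LacZ libraries, 528, 580.3 and 571 in the Nrf1 libraries and 604, 601 and 557 in the Nrf2 libraries. Again LacZ was separate and the factors overlapped. Its log2 differences from LacZ were -0.36 with Nrf1 (SE 0.0578, adjusted p = 5.31e-05) and -0.28 with Nrf2 (SE 0.0563, adjusted p = 0.000646), both inside 1.5-fold. Between Nrf2 and Nrf1 the 95% interval of the log2 difference was -0.0678 to 0.282 for *Tgfbr1* (adjusted p = 0.281) and -0.0469 to 0.178 for *Tgfbr2* (adjusted p = 0.307). The number of *Tgfbr1* reads per 100 *Tgfbr2* reads was 39.9, 53.7 and 50.9 in LacZ, 38.5, 36.8 and 33.3 in Nrf1, and 34.4, 35.1 and 42.7 in Nrf2, so LacZ and Nrf2 overlapped in this ratio.

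*Smad3*, which carries the signal to the nucleus, was lower than LacZ with both factors and lowest with Nrf1. It had 1043, 1073 and 1079 normalized reads in the LacZ libraries, 669, 664 and 665 in the Nrf1 libraries and 781, 806 and 839.9 in the Nrf2 libraries. The groups were fully separate, and the Nrf1 libraries were almost identical. *Smad3* fell by 0.68 on the log2 scale with Nrf1 (SE 0.0456, adjusted p = 2.73e-09). With Nrf2 its log2 difference from LacZ was -0.40 (SE 0.0465, adjusted p = 5.78e-06), inside 1.5-fold, and Nrf2 cells were above Nrf1 cells by 0.27 (SE 0.0444, adjusted p = 4.06e-05).

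*Smad7*, the inhibitor, had 928, 861 and 874 normalized reads in the LacZ libraries, 749.9, 684 and 739 in the Nrf1 libraries and 665, 744 and 699.6 in the Nrf2 libraries. Both factor groups lay below LacZ and overlapped each other. The log2 differences from LacZ were -0.30 with Nrf1 (SE 0.0529, adjusted p = 0.000140) and -0.34 with Nrf2 (SE 0.0539, adjusted p = 0.000110). The interval of the difference between Nrf2 and Nrf1 was -0.157 to 0.0614 (adjusted p = 0.449). There were 88.9, 80.2 and 81.0 *Smad7* reads per 100 *Smad3* reads in LacZ cells and 112, 103 and 111 in Nrf1 cells. In Nrf2 cells the ratio was 85.2, 92.3 and 83.3, overlapping that of LacZ.

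**Figure D3:**
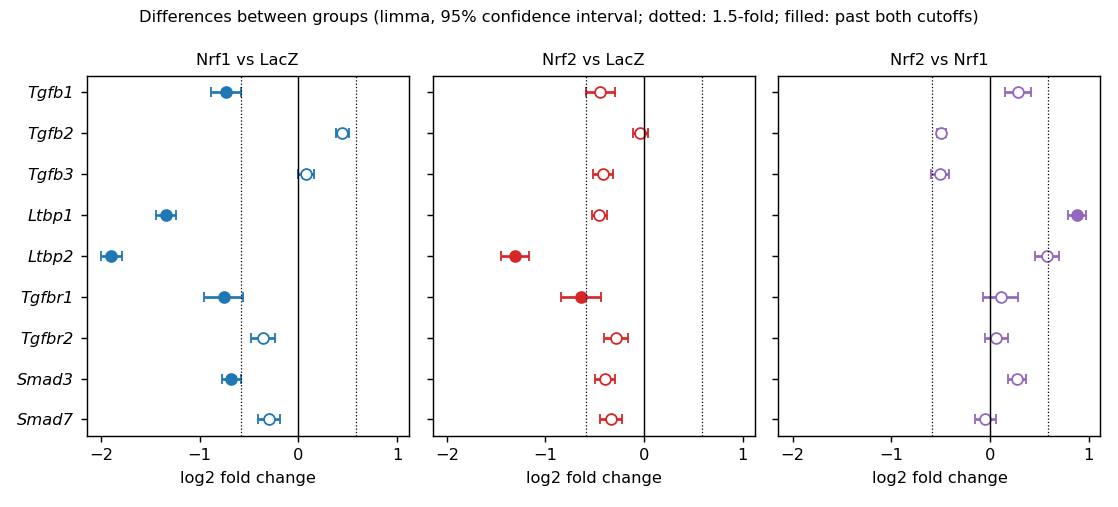
Log2 fold changes of the 9 genes in each comparison (x axis) with 95% confidence intervals from limma. Filled points passed both cutoffs and dotted lines mark 1.5-fold. With Nrf1, 5 genes are filled, from *Smad3* (-0.68) to *Ltbp2* (-1.89), and *Tgfb2* lies at 0.45.

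Counted over the group, 5 of the 9 genes were lower in Nrf1 than in LacZ cells past both cutoffs (1.5-fold and adjusted p under 0.05) and 0 were higher. Of all 11433 genes tested in this comparison, 28.3% were called in either direction, 17.0% as lower and 11.3% as higher. At the p cutoff alone 7 were lower and 1 higher, where 66.9% of all genes passed, 32.5% as lower and 34.3% as higher. All 9 genes had groups that did not overlap, as did 70.6% of all genes. In Nrf2 against LacZ, 2 of the 9 genes were lower past both cutoffs and 0 higher, where 18.8% of all 11609 genes were called, 9.58% as lower and 9.25% as higher. This split of 1112 lower and 1074 higher genes was 1420 and 865 with libraries scaled by total reads. At the p cutoff alone 8 were lower and 0 higher, where 54.7% of all genes passed, 26.0% as lower and 28.7% as higher. The remaining gene, *Tgfb2*, passed it as lower when libraries were scaled by total reads. The groups did not overlap for 8 genes, against 61.7% of all genes. In Nrf2 against Nrf1, 1 gene (*Ltbp1*) was higher past both cutoffs and 0 were lower, where 15.9% of 11494 genes were called, 11.2% as higher and 4.65% as lower. At the p cutoff alone 4 were higher and 2 lower, where 58.7% of all genes passed, 28.9% as higher and 29.8% as lower. The groups did not overlap for 6 genes, against 63.7% of all. Over the 9 genes the log2 fold changes had a median of -0.68 with Nrf1, -0.42 with Nrf2 and 0.11 between Nrf2 and Nrf1, while the medians over all tested genes were 0.0032, -0.0017 and -0.0045. Each group of libraries enters 2 of the 3 comparisons, so the comparisons are not independent.

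Markers of the other cells of a neonatal heart culture moved in the same libraries. The counts below stand beside the shares over all tested genes. With Nrf1 17.0% were called lower and 11.3% higher, and with Nrf2 9.58% and 9.25%. The culture held the cardiomyocyte markers at 157584 to 183460 summed normalized reads over 9 genes in LacZ, with a group mean of 95.3% of LacZ in Nrf1 and 107% in Nrf2. The sum for Nrf1 hides opposite changes, as 3 of the 9 were lower past both cutoffs (*Myh7*, -1.07 on the log2 scale, *Tnni3*, -0.96, and *Nppa*, -0.62) and 2 higher (*Ryr2*, 0.83, and *Actc1*, 0.64). With Nrf2, 0 of the 9 passed both cutoffs. At the p cutoff alone 6 were higher and 2 lower, where 28.7% and 26.0% of all genes were. The summed level of 10 fibroblast markers was 117018 to 117578 in LacZ, 39363 to 41728 in Nrf1 and 65703 to 70617 in Nrf2, which is 34.6% and 58.4% of LacZ. Most of each sum was *Col1a1*, with means of 86236 in LacZ and 22603 in Nrf1 on the scale of that pair. The median log2 differences of the 10 markers, in which each gene counts equally, were -1.63 with Nrf1 and -0.99 with Nrf2. Of these markers 9 and 8 were lower past both cutoffs with Nrf1 and Nrf2. They include *Ddr2*, a collagen receptor, with log2 differences of -1.38 and -0.95, and *Thy1*, a surface protein of fibroblasts, with -1.54 and -0.77. *Tcf21* had the opposite order, with -0.90 and -1.81. *Pdgfra* had -1.46 and -0.40, the second inside 1.5-fold. Directly compared, 5 of the 10 markers were higher in Nrf2 than in Nrf1 cells past both cutoffs and 1 (*Tcf21*) was lower. Of all tested genes 11.2% were called higher and 4.65% lower there. *Vim*, an intermediate filament protein that is not confined to fibroblasts, differed by -0.34 and -0.27. The summed level of 10 leukocyte markers was 1672 to 2469.5 in LacZ, 984 to 1012 in Nrf1 and 942 to 1033 in Nrf2. The highest LacZ value was that of library b, which also held the most *Tgfb1*, *Ltbp2* and *Tgfbr1* reads of its group. Of the 9 leukocyte markers tested, 8 were lower past both cutoffs with each factor. The exception was *Csf1r*, with log2 differences of 0.45 with Nrf1 (limma adjusted p = 0.00390) and 0.10 with Nrf2 (adjusted p = 0.542). The 8 endothelial markers summed to 1435 to 1476 in LacZ, 1039 to 1147 in Nrf1 and 1011 to 1248 in Nrf2, with 5 and 4 lower past both cutoffs and, with Nrf2, 1 higher. The 8 mural and smooth muscle markers summed to 36711 to 43065 in LacZ, 61761 to 62581 in Nrf1 and 50053 to 53434 in Nrf2. Of them 2 were higher and 4 lower with Nrf1, and 1 higher and 1 lower with Nrf2. The 2 higher with Nrf1, *Acta2* and *Tagln*, make up most of the sum in every group. The median log2 differences of the 8 markers were -0.57 with Nrf1 and -0.13 with Nrf2, so the higher sums do not describe most of the list. None of the markers was at 0 in all libraries. TGF-β genes are used by all of these cells, fewer cells of a type and less RNA per cell cannot be told apart in bulk RNA, and the part of these markers in the differences of the 9 genes was not tested.

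**Figure D4:**
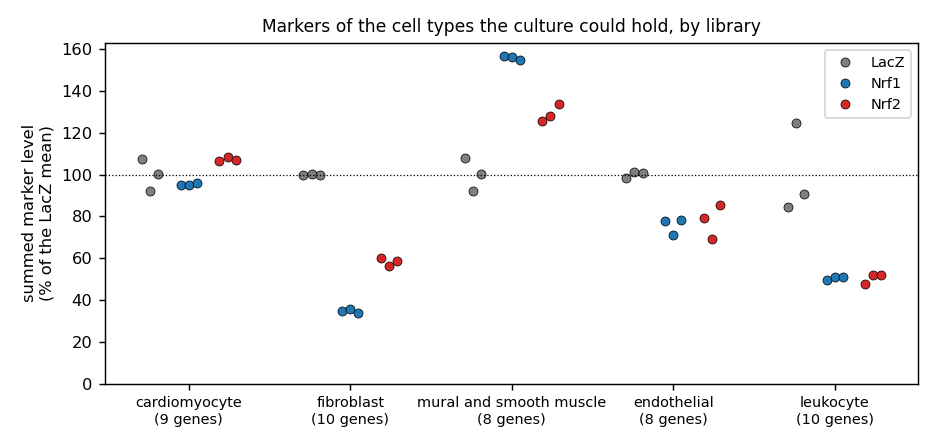
Summed normalized reads of the marker genes of 5 cell types in each library, as a percent of the LacZ mean (dotted line at 100). Summed fibroblast markers, mostly *Col1a1*, average 34.6% in Nrf1 and 58.4% in Nrf2, and the LacZ library that stands apart in leukocyte markers is library b.

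The wider pathway was described with lists of 88 other genes, of which 80 were tested against LacZ. Past both cutoffs, 38 were lower and 4 higher with Nrf1, and their median lay at -0.49 on the log2 scale. With Nrf2, 26 were lower and 1 higher, with a median of -0.34. Of all tested genes 17.0% and 9.58% were called lower in these comparisons, and the lists were chosen with results of these libraries known. Between Nrf2 and Nrf1, 14 of 81 were higher in Nrf2 and 4 lower, where 11.2% and 4.65% of all tested genes were called higher and lower.

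Of the other genes of latency and activation, 7 of 10 were lower with Nrf1 past both cutoffs, 0 were higher and the median was -0.65 on the log2 scale. With Nrf2, 3 of 10 were lower and the median was -0.30. Of all tested genes 17.0% were called lower with Nrf1 and 9.58% with Nrf2. *Ltbp4*, a binding protein of the latent *Tgfb1* product, fell by 1.68 on the log2 scale with Nrf1 (SE 0.116, adjusted p = 3.74e-09) and differed by -0.24 with Nrf2 (SE 0.0928, adjusted p = 0.0374). *Fbn1*, the microfibril protein that latent complexes attach to, fell with both factors (log2 differences of -1.48 with Nrf1 and -0.96 with Nrf2). *Lrrc32*, which holds latent TGF-β on the cell surface, fell in the same order by log2 differences of -0.66 and -0.68. *Ltbp3* fell by 0.83 with Nrf1 and differed by -0.02 with Nrf2 (adjusted p = 0.777). *Furin*, the protease that cleaves the ligand precursors, and the integrin subunit *Itgb5* did not pass the p cutoff in either comparison (log2 differences between -0.08 and 0.07). *Itgb8*, an integrin subunit that releases latent TGF-β, fell by 0.65 with Nrf1 and differed by -0.01 with Nrf2 (adjusted p = 0.941). Directly compared, *Ltbp4* (log2 difference 1.42) and *Ltbp3* (0.80) were among the 3 genes of this list that were higher in Nrf2 than in Nrf1 cells.

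Past both cutoffs, 3 of 10 other receptors and co-receptors were lower with Nrf1, where 17.0% of all tested genes were. With Nrf2, 2 of 10 were lower, where 9.58% of all were. In both comparisons 0 were higher, and the medians were -0.16 and -0.08. The falls were those of *Acvrl1*, a type I receptor of endothelial cells, with log2 differences of -1.29 with Nrf1 and -1.35 with Nrf2, and of *Eng*, its co-receptor, with -0.90 and -0.95. *Bambi*, a decoy receptor without a kinase, fell by 0.76 with Nrf1 and differed by 0.10 with Nrf2 (adjusted p = 0.131). *Tgfbr3*, the co-receptor that presents *Tgfb2* ligand, differed by 0.01 (adjusted p = 0.941) and 0.16 (adjusted p = 0.133) in Nrf1 and Nrf2 cells. *Bmpr1a* with Nrf1 (0.15) and *Acvr2a* with Nrf2 (0.21) were the members that were higher at the p cutoff. Of the 8 endothelial markers, 5 were lower with Nrf1 and 4 with Nrf2 past both cutoffs. They ranged from -1.03 (*Vwf*) to 0.34 (*Egfl7*) on the log2 scale with Nrf1, and from -1.26 (*Emcn*) to 0.78 (*Egfl7*, past both cutoffs) with Nrf2. Their part in the falls of *Acvrl1* and *Eng* was not tested.

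None of the 5 other Smad genes tested passed both cutoffs. At the p cutoff alone 4 of 5 were lower with each factor, where 32.5% of all genes were lower with Nrf1 and 26.0% with Nrf2. Among them were the common partner *Smad4* (log2 differences of -0.29 and -0.26) and *Smad2*, which shares the receptor with *Smad3* (-0.18 and -0.26). The Smads of bone morphogenetic protein signaling differed by -0.39 with Nrf1 and -0.13 with Nrf2 (*Smad1*, adjusted p = 0.0844 with Nrf2) and by -0.12 and -0.32 (*Smad5*, adjusted p = 0.152 with Nrf1). *Smad6*, an inhibitor of that branch, differed by -0.24 and -0.34. Of 12 intracellular modulators 1 was called lower with Nrf1 and 0 with Nrf2, where 17.0% and 9.58% of all tested genes were. The called gene was *Smurf1*, a ubiquitin ligase that works with Smad7, which fell by 0.60 with Nrf1 and differed by -0.40 with Nrf2. Its relative *Smurf2* differed by -0.50 and -0.41, inside 1.5-fold. *Fkbp1a*, which keeps the type I receptor inactive, differed by 0.39 and 0.48 (adjusted p = 2.76e-08 and 2.39e-08). *Nedd4l*, a ubiquitin ligase for Smads, differed by 0.30 and 0.24. *Pmepa1*, an inhibitor induced by the pathway, differed by -0.51 and -0.32.

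**Figure D5:**
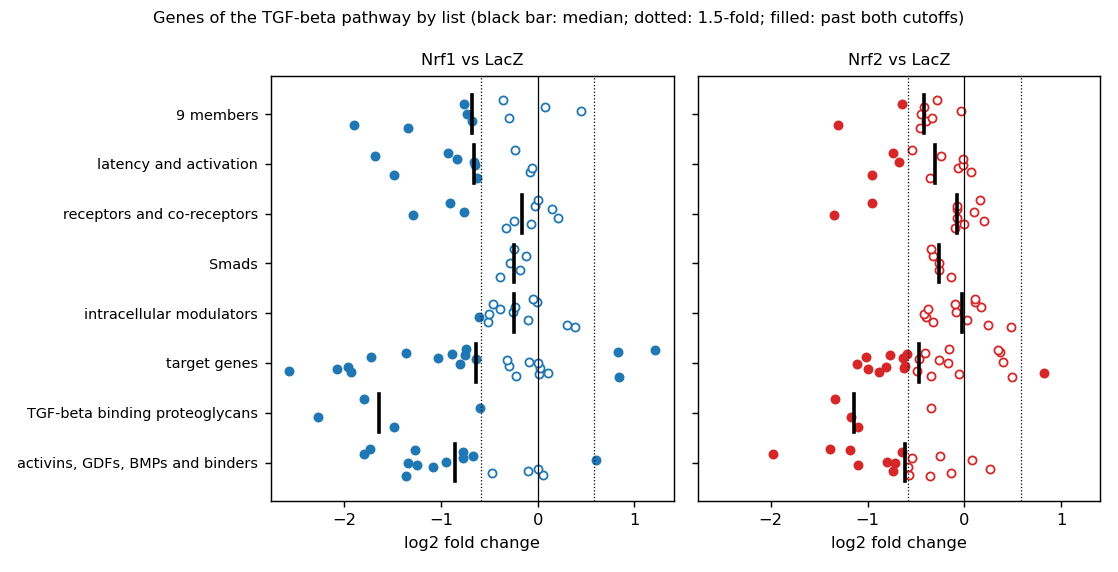
Log2 fold changes (x axis) of the genes in each list with Nrf1 (left) and Nrf2 (right) against LacZ. Each point is a gene, filled where it passed both cutoffs, black bars are list medians and dotted lines mark 1.5-fold. Target genes spread to both sides with Nrf1, from *Tgfbi* at 1.22 to *Col1a2* at -2.57.

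Target genes of the pathway were more often lower than higher. With Nrf1, 12 of 23 were lower and 3 higher past both cutoffs, and with Nrf2 10 were lower and 1 higher. Of all tested genes, 17.0% were called lower and 11.3% higher with Nrf1, and 9.58% and 9.25% with Nrf2. The medians were -0.64 and -0.47. *Ctgf*, a matrix protein, differed by 0.02 with Nrf1 (SE 0.0287, adjusted p = 0.479) but fell by 0.63 with Nrf2 (SE 0.0364, adjusted p = 3.80e-09), and the log2 difference of Nrf2 from Nrf1 was -0.66. *Tgfbi*, an adhesion protein of the matrix, rose by 1.22 with Nrf1 (SE 0.0679, adjusted p = 2.77e-10) and was 0.34 above LacZ with Nrf2 (SE 0.0771, adjusted p = 0.00172).

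*Acta2*, smooth muscle actin, rose by 0.84 with Nrf1 and differed by 0.49 with Nrf2, and *Tagln*, an actin binding protein, rose by 0.84 and differed by 0.36. *Cnn1*, calponin, differed by 0.11 with Nrf1 and rose by 0.82 with Nrf2. These 3 genes also stand in the list of mural markers. The log2 differences with Nrf1 and Nrf2 were -2.07 and -0.99 for *Col3a1* and -1.93 and -0.88 for *Col1a1*. They were -1.72 and -1.02 for *Postn*, periostin, and -0.80 and -1.11 for *Edn1*, endothelin, all past both cutoffs. *Col1a1* and *Postn* also stand in the list of fibroblast markers, whose summed level was 34.6% and 58.4% of LacZ. *Col1a1* makes up most of that sum, which is therefore not separate from the fall of *Col1a1*. *Col1a2* fell by 2.57 with Nrf1, but its reads were uneven among libraries, with an SE of 0.480. *Fn1*, fibronectin, could not be settled in LacZ cells and was lower in Nrf2 than in Nrf1 cells (log2 difference -0.77).

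Proteoglycans that bind TGF-β were lower as well, 4 of 4 with Nrf1 and 3 of 4 with Nrf2, with medians of -1.64 and -1.14. Of all tested genes, 17.0% were called lower and 11.3% higher with Nrf1, and 9.58% and 9.25% with Nrf2. *Dcn*, decorin, had log2 differences of -2.26 and -1.17 and *Lum*, lumican, of -1.80 and -1.33, and both are also fibroblast markers. *Bgn*, biglycan, had -1.48 and -1.10, and *Fmod*, fibromodulin, -0.59 and -0.35 (adjusted p = 0.105 with Nrf2). Of the activins, growth and differentiation factors, bone morphogenetic proteins and their binders, 11 of 16 were lower and 1 higher with Nrf1, and 8 were lower with Nrf2, with medians of -0.86 and -0.62. *Grem1*, an antagonist of bone morphogenetic proteins, fell with both (-1.79 and -1.98), as did *Inhbb*, an activin subunit (-1.27 and -1.18). *Bmp1*, a protease that cleaves Ltbp1 and procollagen, fell by 1.36 with Nrf1 and differed by -0.35 with Nrf2. In Nrf1 and Nrf2 cells *Bmp2* differed by -0.47 and -0.14 (the second with adjusted p = 0.201). *Bmp6* differed by 0.00097 (adjusted p = 0.993) and 0.26 (adjusted p = 0.0184). *Bmp4* differed by -0.09 with Nrf1 (adjusted p = 0.331) and fell by 0.74 with Nrf2.

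Among 8288 genes, those with fold changes nearest to a ligand's in the 3 comparisons (Euclidean distance on the log2 scale) were *Trip10*, *Foxm1* and *Phlda3* for *Tgfb1* (distances 0.00656 to 0.0219). For *Tgfb2* they were *Zfp64*, *Zfp612* and *Pmm2* (0.00633 to 0.0191), and for *Tgfb3* they were *Plcb1*, *Fam198b* and *Fgfr2* (0.0298 to 0.0449). The distances for *Tgfb1* and *Tgfb2* were below the SE of the ligand's own fold change in each comparison. Those for *Tgfb3* were of a size similar to its SEs. Which genes rank nearest is therefore uncertain, and shared regulation was not tested.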

How the data were processed

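Reads of 9 stranded, single-end mRNA libraries were processed by the authors with FastQC 0.11.4, HISAT2 2.0.4 (rat genome Rnor_6.0), SAMtools 0.1.18 for removal of duplicate reads and featureCounts 1.6.0. Whether counting used the strand is not given in the sources used here. Removing duplicates from single-end reads can lower counts of highly expressed genes. The authors deposited 3 tables, each for a pair of groups, whose signal is the group mean of read counts divided by size factors. The tables also hold the authors' fold changes, p-values and adjusted p-values, which were not used, and 0 unused columns of single samples. The study's methods name edgeR 3.20.5, which was not run here.

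Each deposited mean is a sum of whole reads, each library's multiplied by a fixed step, and each group stands in 2 tables with different steps. From both means the whole reads of each library were solved for, with a unique answer for 15117 of 15118 genes in LacZ (*Fn1* excepted) and for all 15096 in Nrf1 and in Nrf2. In simulated data 133875 of 133875 values were recovered correctly. Steps do not tell which library has which replicate number. The recovered libraries of a group all differed beyond sampling noise (chi-square per gene 1.48 to 4.81).

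Differences were tested with limma 3.58.1 in R 4.3.3 (trended prior, two-sided) on log2(normalized reads + 1) of the 6 libraries of a pair with the authors' size factors, for genes whose mean reached 10 in 1 group or both, with Benjamini-Hochberg adjustment over all tested genes. Fold changes are on that scale. A gene was called at 1.5-fold and an adjusted p under 0.05, the study's cutoffs. In a simulation of Nrf1 against LacZ with 11371 genes, 196 of 200 genes given a log2 change of 1 were called and 1 of 11171 unchanged genes. The changed genes were drawn from the better covered ones, and the same dispersion of 0.01 was used for every gene. These rates may thus not hold for genes with few reads or with reads uneven among libraries. Normalized reads printed per library are on a joint scale, set by median ratios over 12363 genes, that moves differences by at most 0.00453 (log2).

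The 9 genes were set by their symbols. Of each pathway list, the genes with the largest rises and falls against LacZ at a mean of at least 100, and *Ctgf* and *Tgfbi*, were to be named, and 1 other gene under this rule is not reported here. *Ltbp3*, *Bambi*, *Tagln*, *Col1a1*, *Fn1* and single markers were named after their values were seen. The genes and lists were chosen with earlier results of these data known. *Itgav*, *Ski*, *Skil*, *Trim33*, *Aspn* and *Ttn* were not analysed here. Alternatives covered normalization, low-value filter, cutoffs, pseudocount, voom weights, a fit on all 9 libraries and leaving out each library.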

Additional observations from a re-analysis of the deposited data

How the results depend on the processing

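The log2 fold changes and calls of the 9 genes in 3 comparisons were obtained under 17 alternatives each. Alternatives that changed only a cutoff or the low-value filter left each fold change as it was, so direction could not change under them. Of these 459 values, 0 changed direction and 436 kept the same call by both cutoffs together. Passing the p cutoff alone was not counted. *Tgfb2* in Nrf2 against LacZ, for example, passed it when scaled by total reads (log2 difference -0.13, limma adjusted p = 0.00333). Under settings other than another fold-change cutoff, 4 values changed their call by both cutoffs. These 4 were *Tgfbr1* in Nrf2 against LacZ without LacZ library b, and *Ltbp2* in Nrf2 against Nrf1 when re-centred, without Nrf1 library a and without Nrf2 library b. The count of called genes among the 9 in Nrf1 against LacZ, Nrf2 against LacZ and Nrf2 against Nrf1 (5, 2 and 1) became 2, 1 and 0 at a fold-change cutoff of 2, and 8, 8 and 6 with no such cutoff. It became 2 in Nrf2 against Nrf1 after re-centring, and ranged over 5 to 5, 1 to 2 and 1 to 2 when each library was left out in turn.

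Over all genes, Nrf1 against LacZ gave 1290 higher and 1943 lower, 469 and 1073 at a fold-change cutoff of 2, 3927 and 3716 with none, and 1018 lower at a mean of at least 100. Nrf2 against LacZ gave 1074 and 1112, 531 and 455 at a cutoff of 2, 3327 and 3020 with none, and 662 and 570 at a mean of at least 100. Nrf2 against Nrf1 gave 1290 and 534, 652 and 136 at a cutoff of 2, 3319 and 3427 with none, and 642 higher at a mean of at least 100. Fewer genes were tested at that mean. Scaled by total reads, the higher and lower calls became 1075 and 2191, 865 and 1420, and 1269 and 561 in the 3 comparisons, so that the near-even split of Nrf2 against LacZ leaned to lower calls.

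No paired analysis was possible because the recovered libraries carry no replicate number. With 3 libraries per group, the 95% interval of *Tgfbr1* in Nrf2 against LacZ, which has few reads, reached from -0.85 to -0.44. Among genes whose mean reached 100, the median log2 fold change was 0.05, 0.02 and -0.03 in the 3 comparisons.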

Other observations

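*Col1a2*, whose product pairs with that of *Col1a1* in type I collagen, was unlike the other collagen genes in its spread. Its whole reads were 123, 371 and 124 in the LacZ libraries a, b and c, 93, 24 and 14 in the Nrf1 libraries and 292, 216 and 61 in the Nrf2 libraries, while *Col1a1* had 91047, 81337 and 77507 in the same LacZ libraries. Its level in Nrf2 against LacZ was -0.49 on the log2 scale with an SE of 0.450 (adjusted p = 0.378).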
